A study of Homo sapiens with 18 samples.

Results

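The genes described here are the integrin subunits and laminin chains of the human whole-transcriptome TempO-Seq panel, taken by gene symbol: every probe named ITGA or ITGB followed by a number or by V, E, L, M, D or X, and every probe named LAMA, LAMB or LAMC followed by a digit. The names gave 42 of the 21111 probes and 37 of the 19289 genes. Of these, 26 probes belonged to 25 integrin genes, 17 alpha and 8 beta subunits, and 16 probes belonged to 12 laminin chain genes. Some genes carried more than 1 probe, among them ITGA1 and LAMB2 with 2 and LAMA4 with 3, and probes of the same gene are not independent. ITGA2B does not match the naming rule and was not included.

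RNA was measured in triple-negative breast cancer (TNBC) cells of 3 lines, SUM149PT, Hs578T and BT549, after transfection in 96-well plates with 50 nM siRNA. The siASAP1 group received a SMARTpool against ASAP1, an Arf GTPase-activating protein that acts at sites of cell adhesion, and the siCtrl group received control siRNA, per the methods a pool of kinase siRNAs. Cells were lysed 72 h later, and each of the 6 groups held 3 libraries described as biological triplicates. In TempO-Seq a pair of detector oligos is ligated on each target RNA and the ligation products are counted, so levels are comparable between libraries for a probe but not between probes: the means of the 2 LAMB2 probes over the 18 libraries differed 102-fold.

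Integrins are alpha-beta heterodimers that link the extracellular matrix to actin or, for ITGA6 with ITGB4, to keratin at hemidesmosomes. Laminins are alpha-beta-gamma heterotrimers and are the main cell-adhesive proteins of basement membranes. The epithelial trimer with LAMA3 and LAMB3 is bound by ITGA6 with ITGB4 and by ITGA3 with ITGB1, the trimers with LAMA5 by ITGA3 or ITGA6 with ITGB1, and fibronectin by ITGA5 with ITGB1.

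Library totals ran from 4633629 to 12488575 reads. ASAP1, the targeted gene, was lower in every siASAP1 library than in every siCtrl library of BT549 and of Hs578T, but in SUM149PT the siCtrl replicate 2 library held only 189 normalized counts, where the remaining siCtrl libraries held 1087 and 1314 and the siASAP1 libraries 184 to 468. By limma the Log2 FC of ASAP1 was -0.75 (SE 0.39) in BT549, -0.98 (SE 0.32) in Hs578T and -1.16 (SE 0.77) in SUM149PT. In no line did it meet both a p below 0.05 and an absolute Log2 FC over 1. Over the 18 libraries the Log2 FC was -0.96 (SE 0.31, adjusted p = 0.127, limma with Benjamini-Hochberg adjustment). The library labelled SUM149PT siCtrl 2 also stood apart on the leading axis of replicate differences, the first principal component of the deviations of libraries from their group mean, which held 42.5% of that variance. It was the deepest library of its line, at 7739706 reads, and its score was 0.56, against -0.246 and -0.314 for the other SUM149PT siCtrl libraries. SUM149PT siASAP1 2, at -0.375 against 0.169 and 0.206, and BT549 siASAP1 1, at 0.344 against -0.178 and -0.166, were also set apart within their groups. The counts and the members that the SUM149PT results turn on are also given without SUM149PT siCtrl 2. That library was singled out after its values were seen. Epithelial markers summed to 21290 to 38810 normalized counts in SUM149PT siCtrl, to at most 6.29 in BT549 and to 20.4 to 36.5 in Hs578T siCtrl, while the mesenchymal list was at least 44360 in BT549 and 127900 in Hs578T siCtrl against at most 5339 in SUM149PT siCtrl. In the test between lines described below, 6 of 8 mesenchymal probes were lower and 1 higher in SUM149PT than in BT549. Against Hs578T, 7 of 8 were lower and 0 higher. CDH2 was higher in SUM149PT siCtrl than in BT549 siCtrl, at 1628, 1463 and 2108 against 462, 262 and 253. Of the leukocyte list CD3E was at 0 in every library and PTPRC in all but 1, whereas LCP1 was at 75.8 to 203 in SUM149PT, with overlapping groups, and at 3.20 to 63.1 in the Hs578T libraries. In such bulk lysates, fewer cells of a type and less RNA per cell cannot be told apart.

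Promoters of a few laminin chains are shown because their genes, LAMA3, LAMB3 and LAMA5, were higher together in the siASAP1 libraries of SUM149PT. Each is the 250 bases before a RefSeq transcript start in GRCh38.p14, 5′ to 3′ on the strand of the gene. RefSeq windows were matched for 25 of the 37 genes, 32 windows in all. Capitals mark the AP-1 motif TGANTCA in LAMA3 and LAMB3, and the GC box, GGGCGG or its reverse complement CCGCCC, in LAMA5, searched on both strands. LAMA3 lies on chr18:23872770-23873019, plus strand. LAMB3 lies on chr1:209651375-209651624, minus strand, and is the most downstream of 3 windows of the gene. LAMA5 lies on chr20:62367313-62367562, minus strand.
LAMA3: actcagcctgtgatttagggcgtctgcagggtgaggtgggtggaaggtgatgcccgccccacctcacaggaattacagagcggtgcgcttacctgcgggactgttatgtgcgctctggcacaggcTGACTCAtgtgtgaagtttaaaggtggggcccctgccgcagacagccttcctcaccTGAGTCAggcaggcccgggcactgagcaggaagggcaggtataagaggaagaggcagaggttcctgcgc
LAMB3: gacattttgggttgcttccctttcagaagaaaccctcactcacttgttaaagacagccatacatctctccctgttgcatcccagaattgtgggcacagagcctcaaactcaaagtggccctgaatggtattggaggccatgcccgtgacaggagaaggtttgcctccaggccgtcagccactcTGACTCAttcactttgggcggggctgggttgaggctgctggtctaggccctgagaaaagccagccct
LAMA5: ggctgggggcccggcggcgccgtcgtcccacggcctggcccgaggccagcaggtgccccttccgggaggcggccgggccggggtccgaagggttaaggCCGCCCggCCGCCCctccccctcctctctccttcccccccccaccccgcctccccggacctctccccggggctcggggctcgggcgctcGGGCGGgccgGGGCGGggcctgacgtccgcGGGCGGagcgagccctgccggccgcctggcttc
The LAMA3 window held 2 AP-1 matches, which began 125 and 69 bases before the start, and the LAMB3 window shown held 1, at 67 bases. Neither of the LAMB3 windows not shown held an AP-1 match. The LAMA5 window held no AP-1 match and 5 GC boxes, between 152 and 33 bases before the start. The LAMA3 and LAMB3 windows shown also held 1 GC box each, which is not marked. An AP-1 match was present in 2 of the 32 windows of the gene set, 6.25%, and in 6.57% of all 35116 windows. A GC box was present in 17 of the 32, 53.1%, against 42.6% of all windows. These letters describe the windows and say nothing of which factor binds there.

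Under siCtrl the 3 lines carried different sets of laminin chains and integrins. Of the 42 probes, 27 had a mean of at least 10 normalized counts over the 18 libraries, 64.3% against 49.6% of all probes. The other 15 probes lay under 10, and they included the leukocyte subunits ITGAL, ITGAM, ITGAX, ITGAD, ITGB2 and ITGB7 as well as ITGA7, ITGA9, ITGB6, LAMB4 and LAMC3. ITGB2, the shared beta chain of the first 4 of these alpha subunits, had no read in any library, and ITGB7, the known partner of ITGAE, was read in only 1 of 18. ITGAM reached 52.9 normalized counts in a siASAP1 library of BT549, a line in which its beta partner had no read.

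SUM149PT siCtrl libraries were marked by the hemidesmosome subunit ITGB4, at 146, 86.6 and 152 normalized counts, while all 12 libraries of the other lines held none. All the ITGB4 reads of the series were thus in SUM149PT, at least 49.7-fold above BT549 and 48.4-fold above Hs578T under siCtrl, with the empty libraries set to a floor of 3 reads each. LAMB3, the beta chain of the epithelial laminin, was at 37.2, 26.4 and 16.0 in SUM149PT and at 0 in all 6 BT549 libraries, and its mean over the siCtrl libraries was under the minimum for the test. LAMA3 was at 402, 257 and 529 in SUM149PT, at 22.5, 104 and 29.5 in BT549 and at 8.44, 0 and 18.7 in Hs578T, and its difference was called against Hs578T (Log2 FC 6.06, SE 1.04, adjusted p = 0.00224, limma with Benjamini-Hochberg adjustment) and not against BT549.

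Hs578T stood highest in another group of members. ITGA11, a receptor for fibrillar collagen, was at 2941, 4089 and 4667 normalized counts in Hs578T, at 27.5, 94.95 and 35.8 in BT549 and at 0, 0.91 and 0 in SUM149PT, where only 1 read was found. The ratio of Hs578T to SUM149PT was 9358 with a counting interval of 1679 to 3.70e+05, and that of BT549 to SUM149PT was 142 with an interval of 25.3 to 5639. ITGA8, which binds nephronectin, was at 385, 459 and 534 in Hs578T, at 0, 8.17 and 3.51 in BT549 and had no read in SUM149PT, at least 116.5-fold lower. LAMA2, the alpha chain of muscle-type laminin, was at 964, 1189.6 and 1059 in Hs578T, at 39.9, 48.4 and 36.5 in BT549 and at 14.3, 5.47 and 30.4 in SUM149PT, so that no library of either other line came near those of Hs578T (Log2 FC of SUM149PT against Hs578T -6.19, SE 0.57, adjusted p = 3.75e-05). The widely used chains were read in every line: LAMB1 was at 4206 to 5560.5 in Hs578T, 1977 to 2157 in SUM149PT and 850.2 to 1128 in BT549, 3 ranges that did not overlap.

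BT549 had no probe of the set called above Hs578T. ITGB8, which pairs with ITGAV to bind latent TGF-beta, was at 9.98, 5.03 and 0.70 in BT549, against 356, 776 and 372 in SUM149PT (Log2 FC 6.60, SE 0.69, adjusted p = 9.86e-05) and 258, 243 and 419.7 in Hs578T. LAMA4_15130 had 2 reads in BT549 siCtrl, and the ratio of SUM149PT to BT549 was 138 with a counting interval of 37.6 to 1147. ITGA1_27365, a collagen receptor subunit, was at 0, 3.77 and 14.0 in BT549 and at 118, 339 and 34.5 in Hs578T. BT549 stood above SUM149PT in ITGA11 and in 3 further members. ITGA4, a receptor for VCAM1, was at 32.4, 25.8 and 30.2 in BT549 and had 2 reads in SUM149PT, and ITGA10, another collagen receptor subunit, was at 27.5, 119 and 87.0 against 11.4, 16.4 and 1.60, so that for both the ranges were apart. LAMC1, a gamma chain of most laminins, was at 1194, 1016 and 1067 against 439, 145 and 628 (Log2 FC of SUM149PT against BT549 -1.67, SE 0.48, adjusted p = 0.0375). Of these, LAMC1 and ITGA10 were each lost in 7 of the 9 fits that left out 1 siCtrl library, with adjusted p up to 0.107 and 0.152. LAMC1 stayed only without SUM149PT siCtrl 2 or 3, and ITGA10 only without SUM149PT siCtrl 2 or BT549 siCtrl 1. The difference of ITGA1_27365 between BT549 and Hs578T was also lost in 7 of 9, with adjusted p up to 0.183, and stayed without SUM149PT siCtrl 1 or 2. ITGA4 stayed called against BT549 in 9 of 9.

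With limma on the 9 siCtrl libraries, 24 probes of the set were tested for each pair of lines, and a difference was called at a Benjamini-Hochberg adjusted p below 0.05 with an absolute Log2 FC over 1. SUM149PT exceeded BT549 in 6, 25.0% against 9.4% of all 10255 probes tested, and was lower in 4, 16.7% against 8.76%. SUM149PT exceeded Hs578T in 4, 16.7% against 9.64%, and was lower in 6, 25.0% against 10.5%. BT549 exceeded Hs578T in 0, against 6.26%, and was lower in 8, 33.3% against 7.58%. Without SUM149PT siCtrl 2, 12 were called against BT549, with ITGB1 and ITGB5 added to the 10, and 12 against Hs578T, with ITGB1 and ITGA6 added. Without SUM149PT siCtrl 1, 6 rather than 10 probes were called between SUM149PT and BT549. The same contrast over the siASAP1 libraries called 18, of which 8 were among those 10.

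The main question of the experiment was what ASAP1 depletion changed. In SUM149PT, the epithelial laminin chains LAMA3 and LAMB3 and the LAMA5 chain were higher in siASAP1 than in siCtrl libraries, while their receptor subunits ITGA3, ITGA6, ITGB4 and ITGB1 were not called with all 6 libraries. ITGB1 was called without siCtrl 2. That library, with ASAP1 at only 189 normalized counts, held LAMA3 at 257, LAMB3 at 26.4 and LAMA5 at 271. The remaining siCtrl libraries held 402 and 529, 37.2 and 16.0, and 170 and 310, so that its laminin levels were not raised. How these levels relate to that of ASAP1 was not tested. Of the 24 probes tested, 8 lay within the limits the study set for DEGs, p below 0.05 and absolute Log2 FC over 1, and all 8 were higher. These limits rest on an unadjusted p, so that some probes pass them by chance. That is 33.3%, against 5.27% of all 10078 probes tested that were higher within the limits, and 0 were lower, against 4.29%. None of the 10078 probes passed an adjusted p of 0.05 in this comparison, by limma with Benjamini-Hochberg adjustment, and 1025, 10.2%, had an unadjusted p below 0.05, 8 of the 24 among them.

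LAMA3, the alpha chain of the epithelial laminin, was at 3452, 4609 and 4728 normalized counts in the siASAP1 libraries and at 402, 257 and 529 in the siCtrl libraries. The groups were far apart, with the lowest siASAP1 library well above the highest siCtrl library. The Log2 FC was 3.47 (SE 0.40, adjusted p = 0.0668), a 10.8-fold ratio of the means, and LAMA3 ranked 3 by p among all probes tested. Without SUM149PT siCtrl 2 the Log2 FC was 3.19 with an adjusted p of 0.0317.

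The beta chain LAMB3 was at 111.1, 94.9 and 160.3 in siASAP1 and 37.2, 26.4 and 16.0 in siCtrl libraries, with no overlap (Log2 FC 2.20, SE 0.58, adjusted p = 0.334). Without SUM149PT siCtrl 2 the adjusted p was 0.0852.

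LAMA5, the alpha chain of the laminins found in most adult basement membranes, was at 893, 819 and 1051 in siASAP1 and at 170.2, 271 and 310.1 in siCtrl libraries. Every siASAP1 library was above every siCtrl library (Log2 FC 1.91, SE 0.41, adjusted p = 0.331, and 1.99 with adjusted p = 0.0562 without SUM149PT siCtrl 2). The chains LAMA5 assembles with were not called. LAMB1 differed by a Log2 FC of -0.08 (SE 0.33). LAMC1 was at 585, 949 and 587 against 439, 145 and 628, and the groups overlapped (Log2 FC 1.01, SE 0.59, and 0.39, SE 0.39, without siCtrl 2). LAMA2 was low but apart, at 52.9, 41.0 and 46.0 against 14.3, 5.47 and 30.4, with a Log2 FC of 1.70 (SE 0.80) outside the limits, and of 1.11 (SE 0.71) without siCtrl 2.

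**Figure D1:**
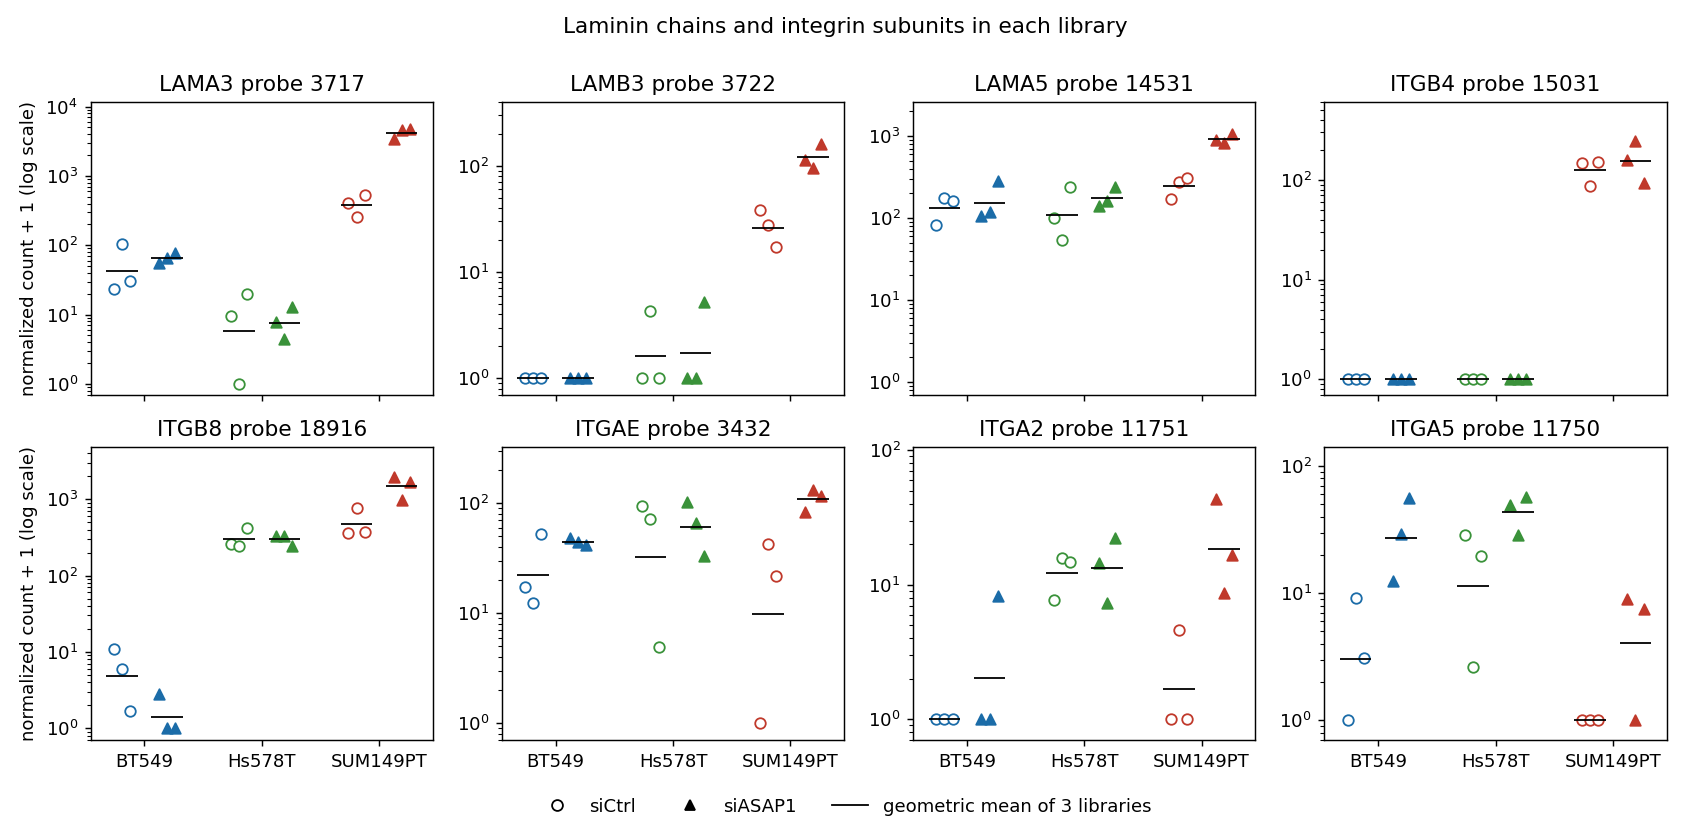
Normalized counts per library of laminin chains and integrin subunits in siASAP1 and siCtrl libraries of each line, plotted as normalized count + 1 on a log axis with 1 point per library (open circles siCtrl, triangles siASAP1) and a line at the geometric mean of 3 libraries. In SUM149PT the 3 siASAP1 points of LAMA3, LAMB3, LAMA5 and ITGB8 lie above the 3 siCtrl points.

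Among the integrins of SUM149PT, ITGB8 was at 1934, 985 and 1700.5 in siASAP1 and at 356, 776 and 372 in siCtrl libraries. The groups did not overlap, although siASAP1 2 and siCtrl 2 came near each other (Log2 FC 1.66, SE 0.47, adjusted p = 0.370, and 2.02 with adjusted p = 0.0552 without siCtrl 2). Its partner ITGAV differed by a Log2 FC of -0.10 (SE 0.43). ITGAE, an alpha subunit that binds E-cadherin, was at 83.3, 131 and 116 against 0, 41.9 and 20.8 (Log2 FC 3.48, SE 1.33, adjusted p = 0.453, and 4.55 with adjusted p = 0.0794 without siCtrl 2). ITGA2, a collagen and laminin receptor subunit, was near the floor, at 42.3, 7.69 and 15.8 against 0, 3.64 and 0 (Log2 FC 3.47, SE 1.49, adjusted p = 0.488, and 4.21 with adjusted p = 0.16 without siCtrl 2). Both were apart between the groups, yet ITGAE fell outside the limits without any 1 of the siASAP1 libraries, and ITGA2 without siASAP1 2, siASAP1 3, siCtrl 1 or siCtrl 3 and under the minimum for the test without siASAP1 1, while LAMA3, LAMB3, LAMA5 and ITGB8 stayed within them in 6 of 6 such fits. Without SUM149PT siCtrl 2, 11 probes were within the limits, all higher, ITGB1 and both ITGA1 probes being added. That is 45.8%, against 14.4% of all 9953 probes tested that were higher and 8.94% that were lower in that fit. Its adjusted p-values are from that fit alone, and over all the alternatives tried the adjusted p ran up to 0.983 for LAMA3, LAMB3, LAMA5, ITGB8, ITGAE and ITGA2.

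The receptor subunits ITGA3, ITGB4, ITGA6 and ITGB1 gave no call with all 6 libraries. ITGA3 was at 1351, 1977 and 1248 in siASAP1 and at 1188.5, 669.6 and 1846 in siCtrl libraries (Log2 FC 0.39, SE 0.46, 95% interval -0.68 to 1.46, and Log2 FC 0.01, SE 0.37, without siCtrl 2). ITGB4 was at 157, 245 and 93.3 against 146, 86.6 and 152 (Log2 FC 0.30, SE 0.54, 95% interval -0.93 to 1.53, and Log2 FC 0.04, SE 0.52, without siCtrl 2). For both, the groups overlapped and a change the size of that of LAMA3 lay outside the interval. ITGA6 was at 38.4, 2.56 and 38.1 against 15.7, 258 and 0, and ITGB1 at 66.1, 24.4 and 112 against 5.72, 353 and 0. Their standard errors were 1.98 and 1.92 on the log2 scale, and siCtrl 2 was the highest library for both. Without siCtrl 2, ITGB1 was within the limits (Log2 FC 4.48, SE 1.20, adjusted p = 0.0798) and ITGA6 was not (Log2 FC 2.11, SE 1.73).

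Over the tested probes of the set in SUM149PT, 20 of 24 had a Log2 FC above 0, 83.3% against 53.5% of all probes, and the median was 1.13 against 0.0867. In 9 of 24 the siASAP1 libraries were all above the siCtrl libraries, 37.5% against 8.87% of all probes, and in 0 all below, against 8.41%. Without siCtrl 2, 19 of 24 had a Log2 FC above 0, 79.2% against 53.1%, with a median of 1.65 against 0.106, and 13 were all above, 54.2% against 23.3%, and 1 all below, 4.17% against 21.4%. Other measures moved with treatment in this line. Of 5 epithelial probes tested, KRT17 and CDH1 were higher within the limits (Log2 FC 1.54 and 1.24, and 1.08 and 1.35 without siCtrl 2), with CDH1 at 229, 263 and 210 against 94, 114 and 88. EPCAM, which held most of the epithelial sum, was lower on average and not called, at 19253, 18650 and 24189 against 31521, 20396 and 36679 (Log2 FC -0.48, and -0.73 without siCtrl 2), and GRHL2 was not called (Log2 FC 0.18). KRT5 was also not called and overlapped, at 23.8, 64.1 and 51.3 against 42.9, 0 and 35.2 (Log2 FC 0.14 without siCtrl 2). The summed epithelial list, 22060 to 28070 in siASAP1, overlapped the siCtrl range. The mesenchymal list summed to 2457 to 3413 against 3624 to 5339, and VIM was at 791, 1040 and 955 against 2908, 1994 and 2965 (Log2 FC -1.48, and -1.67 without siCtrl 2). Of 5 mesenchymal probes tested, only 1 was lower within the limits and 0 higher. CDH2 overlapped, at 1434, 1772 and 2325 against 1628, 1463 and 2108 (Log2 FC -0.04 without siCtrl 2). Also without siCtrl 2, ZEB2 had a Log2 FC of 0.44 and the TWIST1 probes -1.19 and -2.11, none of them called. The part of these differences in the laminin result was not tested.

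**Figure D2:**
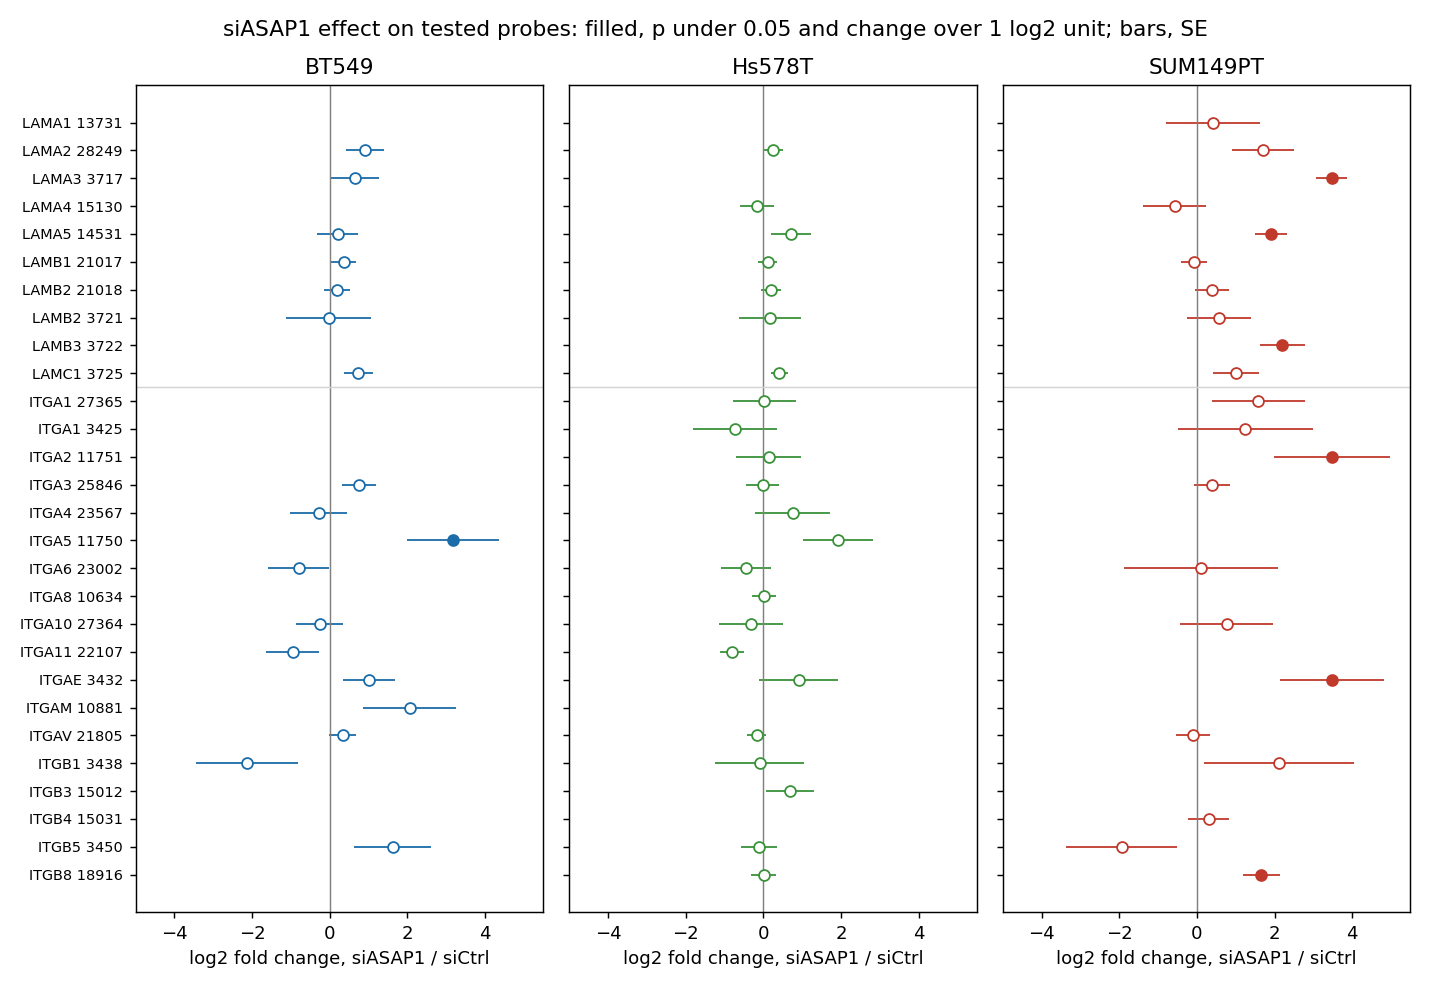
Log2 FC of siASAP1 against siCtrl for integrin and laminin probes tested in each line, as points with bars of 1 SE from limma, filled where p was below 0.05 and the absolute Log2 FC over 1. The filled points, LAMA3, LAMB3, LAMA5, ITGA2, ITGAE and ITGB8 in SUM149PT and ITGA5 in BT549, lie above 0, and Hs578T has none.

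In BT549, 18 probes of the set were tested and 1 was within the limits, ITGA5, the alpha subunit of the fibronectin receptor. It is 5.56%, against 3.28% of all probes that were higher, and 0 were lower, against 3.69%. ITGA5 was at 11.6, 28.3 and 54.8 in siASAP1 and at 0, 8.17 and 2.10 in siCtrl libraries. All 3 siASAP1 libraries were above the siCtrl libraries, but the level was low (Log2 FC 3.16, SE 1.18, adjusted p = 0.602). It fell outside the limits without siASAP1 2, siASAP1 3 or siCtrl 1. LAMA2, at 63.1, 109 and 69.4 against 39.9, 48.4 and 36.5, and LAMB1 were also higher in every siASAP1 library, so that 3 of 18 did not overlap in that direction, 16.7% against 7.35% of all probes. Without siASAP1 1, 4 probes were within the limits, with LAMC1 and ITGA3 added as higher and ITGB1 as lower.

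The laminin chains that rose in SUM149PT gave no call in BT549. LAMB3 had no read in its 6 libraries. LAMA3 was at 55.1, 64.2 and 76.7 against 22.5, 104 and 29.5, and the groups overlapped (Log2 FC 0.64, SE 0.63). LAMA5 was read well, at 104 to 280.1 in siASAP1 and 81.1 to 174 in siCtrl libraries, and also overlapped (Log2 FC 0.20, SE 0.52, 95% interval -0.96 to 1.36). The median of the 18 probes was 0.34, against -0.00153 over all probes. Of 8 mesenchymal probes tested in BT549, 1 was lower within the limits and 0 higher, against 3.69% and 3.28% of all probes.

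In Hs578T none of the 23 probes tested was within the limits, against 1.34% of all probes higher and 1.44% lower. With limma 1 of the 23 had an unadjusted p below 0.05, 4.35% against 5.28% of all probes, and voom weights on recovered reads also gave 0 within the limits. That probe was the collagen receptor ITGA11, at 2017, 3183 and 1608 in siASAP1 and 2941, 4089 and 4667 in siCtrl libraries. The highest siASAP1 library lay above the lowest siCtrl library (Log2 FC -0.81, SE 0.31, adjusted p = 0.917). LAMC1 was at 2078, 1892 and 2090.0 against 1396, 1527 and 1634.5, the only 1 of 23 whose groups were apart, 4.35% against 6.31% of all probes (Log2 FC 0.41, SE 0.22). ITGA5 was at 48.7, 27.8 and 56.5 against 27.8, 1.63 and 18.7, higher on average but outside the limits (Log2 FC 1.93, SE 0.91, adjusted p = 0.923). It came within them without siCtrl 1 or siCtrl 3, fits in which 2 probes were called, ITGA11 or LAMA5 being the other. Without siASAP1 2, only ITGA11 was within them. With a block on the replicate number ITGA5 was within the limits, 1 of 23, 4.35% against 2.24% of all probes higher, and 0 were lower, against 2.34%. The median of the set was 0.0264, against 0.0103 over all probes. EPCAM was the 1 epithelial probe tested there, at 61.2, 25.4 and 77.8 against 22.8, 10.6 and 23.6, within the limits (Log2 FC 1.42), and its part in these values was not tested.

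Across BT549 and Hs578T the laminin receptors also overlapped between treatments. In BT549 ITGA3 was at 1049, 2422 and 3447.5 in siASAP1 and 1118, 1364 and 1211.5 in siCtrl libraries (Log2 FC 0.75, SE 0.44). In Hs578T it was at 774, 911 and 1080.2 against 653, 622 and 1949 (Log2 FC -0.02, SE 0.43). ITGA6 was lower on average in both lines without a call, at 54.2, 10.4 and 12.8 against 67.4, 23.3 and 26.7 in BT549 and at 48.7, 22.6 and 33.1 against 54.0, 92.2 and 18.7 in Hs578T. The groups of ITGA6 overlapped in each line (Log2 FC -0.80, SE 0.79, and -0.45, SE 0.63).

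The remaining alphaV partners and collagen receptors gave no call in any line with all 6 libraries. ITGAV itself, the alpha subunit of several vitronectin and latent TGF-beta receptors, was at 698 to 795 in SUM149PT siASAP1 and 476 to 1141 in siCtrl libraries, and its Log2 FC was 0.33 (SE 0.35) in BT549 and -0.17 (SE 0.24) in Hs578T. Its beta partner ITGB5 was at 17.8, 53.8 and 10.0 against 8.73, 11.9 and 2.10 in BT549 (Log2 FC 1.62, SE 0.99) and at 0, 46.2 and 15.8 against 42.9, 19.1 and 49.6 in SUM149PT (Log2 FC -1.94, SE 1.42), overlapping in both. ITGB3, another partner, had no read in SUM149PT and was at 14.7, 40.5 and 43.7 against 19.4, 19.6 and 15.8 in Hs578T. ITGA1, ITGA8 and ITGA10 had a Log2 FC between -0.74 and 0.03 in Hs578T, and ITGA1 in SUM149PT had 1.58 (SE 1.19) and 1.25 (SE 1.74) on its 2 probes. Without SUM149PT siCtrl 2 both ITGA1 probes were within the limits, with a Log2 FC of 2.95 (SE 0.79) and 3.18 (SE 1.38).

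Over all 18 libraries, with the line as a term, ITGA5 was the only 1 of 27 probes of the set past a Benjamini-Hochberg adjusted p of 0.05 by limma. It is 3.70%, against 0.678% of all 10475 probes that were higher, and 0 were lower, against 1.06%. Its Log2 FC was 2.37 (SE 0.59, adjusted p = 0.0434). The SUM149PT libraries contributed 7.94, 0 and 6.57 normalized counts in siASAP1 and no read in siCtrl, at least 1.23-fold with a floor of 3 reads per library. Over the alternatives its adjusted p ran from 0.0154 to 0.0938, and the call was lost in 12 of the 18 fits that each left out 1 library. These were the fits without SUM149PT siASAP1 1 or 3, any SUM149PT siCtrl library, BT549 siASAP1 2 or 3, BT549 siCtrl 1 or 3, Hs578T siASAP1 1 or 3, or Hs578T siCtrl 2. Its ligand fibronectin was higher on 1 of 3 FN1 probes over the 18 libraries (Log2 FC 1.04, adjusted p = 0.0477), while in SUM149PT, the line with almost no ITGA5 signal, that probe was at 4322, 5346 and 3493 against 973, 753 and 836.

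At an unadjusted p below 0.05, 6 of the 27 probes were reached in the 18-library fit, 22.2% against 15.8% of all probes in either direction. All 6 were higher in siASAP1: ITGA5, LAMA2 (Log2 FC 0.95, adjusted p = 0.103), LAMC1 (0.72, 0.132), LAMA5 (0.94, 0.148), LAMA3 (1.51, 0.177) and ITGAE (1.80, 0.203). For LAMA3, LAMA5 and ITGAE the Log2 FC was 3.47, 1.91 and 3.48 in SUM149PT and 0.64, 0.20 and 1.01 in BT549. In Hs578T it was 0.71 for LAMA5 and 0.91 for ITGAE, and LAMA3 was under the minimum for the test. LAMC1 had a positive Log2 FC in each line, 0.73 (SE 0.38) in BT549, 0.41 (SE 0.22) in Hs578T and 1.01 (SE 0.59) in SUM149PT. The median of the 27 was 0.126 against 0.0235.

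Whether the effect differed between lines was tested with the interaction of line and treatment. None of the 27 probes passed an adjusted p of 0.05 by limma, with 0.00955% of all probes passing, nor did any with voom weights or without SUM149PT siCtrl 2. At an unadjusted p below 0.05 there were 2, 7.41% against 6.22% of all probes: ITGB8 (adjusted p = 0.388) and LAMA3 (adjusted p = 0.751). The LAMA3 effect in SUM149PT exceeded that in BT549 by 2.83 on the log2 scale (95% interval 0.34 to 5.33, adjusted p = 0.506) and that in Hs578T by 3.05 (0.56 to 5.55, adjusted p = 0.736). In Hs578T LAMA3 was near the floor, with 23 reads in siASAP1 and 29 in siCtrl libraries, under the minimum for the test in that line. The difference from Hs578T therefore cannot tell a smaller response from a level too low to show one. The ITGB8 effect exceeded that in BT549, where 2 reads were left in siASAP1, by 3.44 (1.58 to 5.29, adjusted p = 0.206). Against Hs578T, where ITGB8 was read in every library, the difference was 1.65 (-0.21 to 3.50, adjusted p = 0.919), an interval that included no difference. Within Hs578T the Log2 FC of ITGB8 was 0.01 (SE 0.33). The laminin calls in SUM149PT are thus not shown to differ from the other lines at the adjusted threshold.

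ITGB1, the beta subunit shared by most laminin, collagen and fibronectin receptors, varied widely between replicates. It was at 350.2, 32.1 and 1.83 in BT549 siASAP1 and 153, 156 and 114 in siCtrl libraries. In Hs578T it was at 179, 409 and 40.5 against 239.7, 659 and 22.7, and the SUM149PT values above spanned 0 to 353 within siCtrl alone. Its SD within groups was 2.61 on the log2 scale, above 99.3% of all probes, whose median was 0.808. In 6 of 6 groups the library with the highest score on the leading axis of replicate differences was also the highest for ITGB1, which held for 1 of 27 probes of the set, 3.70%, and for 3.52% of all probes. ITGA1_3425, ITGA10 and ITGA11 followed it in 5 of 6 groups, so that 4 of 27, 14.8%, did so in at least 5, against 12.1% of all probes. LAMC1, ITGA3, LAMB2_21018 and LAMA3 were instead lowest in that library in 4 of 6 groups, a cutoff at which all probes were not counted. In at least 5 groups, 0 of 27 were lowest there, against 7.23% of all probes.

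**Figure D3:**
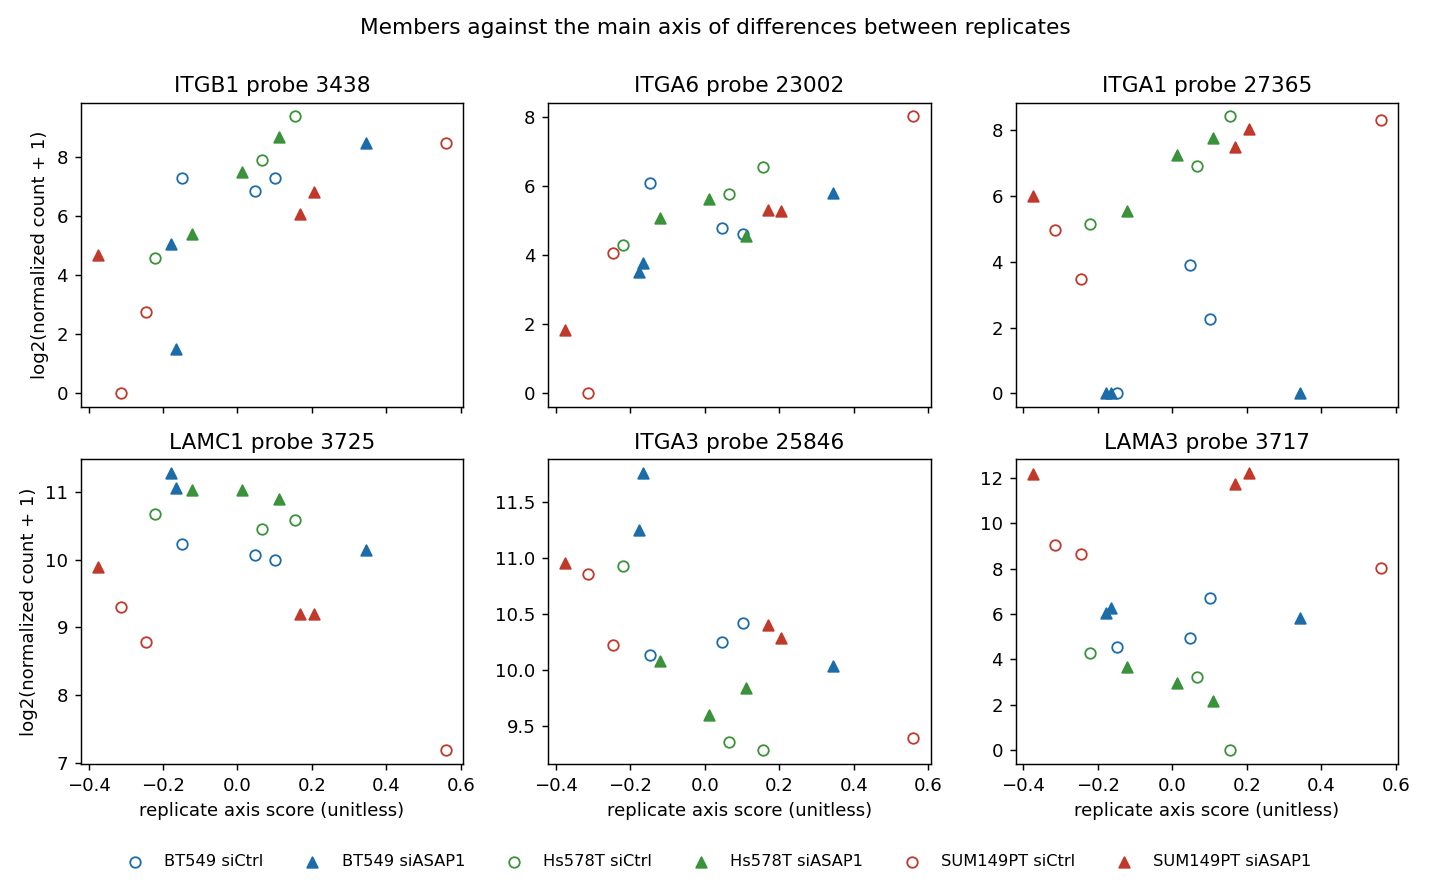
Level of 6 probes of the set in each of the 18 libraries, as log2(normalized count + 1), against the score of the library on the leading axis of replicate differences (no unit), with open circles for siCtrl and triangles for siASAP1. ITGB1 is highest in the library with the highest score in 6 of 6 groups.

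The partners of these proteins were counted on lists of known partners, with the same limits in each line and the adjusted threshold over the 18 libraries. Over all probes, 5.27% were higher and 4.29% lower in SUM149PT, 3.28% and 3.69% in BT549, 1.34% and 1.44% in Hs578T, and 0.678% and 1.06% over the 18 libraries. Of 14 probes of other integrin ligands tested in SUM149PT, 5 were higher and 0 lower: 3 FN1 probes (Log2 FC 2.35, 1.47 and 1.45), ICAM1 (1.99), which binds leukocyte integrins, and SPP1 (3.15), osteopontin. In BT549 3 of 11 were higher, ICAM1 (2.39), THBS1 (1.49) and CYR61 (1.10), and in Hs578T 2 of 14, TNC (1.57) and SPP1 (3.59). Over the 18 libraries 2 of 15 passed the adjusted threshold, SPP1 (Log2 FC 2.599, adjusted p = 0.0228) and FN1, and none of these tests gave a lower ligand. SPP1 rests on few reads, at 11.9, 48.7 and 73.6 in siASAP1 and 4.29, 11.8 and 0 in siCtrl libraries of SUM149PT. In Hs578T it was at 27.2, 19.1 and 21.3 against 0.84, 0 and 2.96, and in BT549 at 0.89, 3.78 and 0 against no read. Of the basement membrane partners, COL4A2 (4.12) was the only 1 of 8 called in SUM149PT, COL18A1 (1.77) was higher and EFEMP1 (-1.45) lower of 8 in BT549, and AGRN (1.19), which binds laminin, was higher of 9 in Hs578T. COL4A2 was low in SUM149PT, at 19.8, 59.0 and 18.4 in siASAP1 and 0, 3.64 and 0 in siCtrl libraries. COL4A1, on the same list, was not called there and was lower on average, at 112, 201 and 158 against 290, 173 and 309. EFEMP1, a fibulin, was also the only 1 of 10 past the adjusted threshold over the 18 libraries (Log2 FC -1.08, adjusted p = 0.00624). It was lower without overlap in SUM149PT, at 5947, 8840.5 and 6100 against 15952, 9351 and 14387, and in Hs578T, at 597, 685 and 503 against 963, 1337 and 999.98, although outside the limits in both (Log2 FC -0.91 and -0.88). Non-integrin laminin receptors were lower in SUM149PT for 2 of 8, DAG1 (-1.40), the dystroglycan core, and SDC2 (-1.99), and were called for none of 7 in either other line. The hemidesmosome and tetraspanin partners gave CD82 (2.81) higher and CD9 (-1.53) lower of 7 in BT549 and none elsewhere. The integrin activators and linkers to actin, 17 or 18 probes per line, gave no call in any line or over the 18 libraries. Without SUM149PT siCtrl 2 the calls in that line changed. FN1_2459 (1.21) left the ligands, and EFEMP1 (-1.15) and SDC1 (-1.24) were added as lower, AGRN (2.94) and DST_27140 (3.56) as higher. The activators and linkers then gave LIMS1 (3.18), SHARPIN (1.40) and TNS3 (1.69) higher and PARVB (-4.93) lower, against 14.4% of all probes higher and 8.94% lower.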

How the data were processed

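RNA of 18 lysates was measured by TempO-Seq, sequencing of ligated detector oligos on a panel of 21111 probes. Per the submitters' processing notes the tools were bcl2fastq, Bowtie and DESeq2, versions and genome build not given in the sources used here. The deposited values are log2 values, which the authors made from counts divided by DESeq2 size factors with 1 added. They gave whole reads within 0.02 reads for 100% of values, and totals of 4633629 to 12488575 reads per library. Read counts had been planned for, and since the unit was log2 the test was limma 3.58.1 (R 4.3.3; lmFit, eBayes with trend) on the log2 values, with the reads recovered used for voom weights as an alternative only. Normalized counts are the deposited values taken back from log2, and fold changes are on the log2(count + 1) scale, which understates changes of low probes.

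A probe was tested where its normalized counts averaged 10 or more over the libraries fitted, each line on its 6 libraries, all 18 with the line as a term, the interaction of line and treatment, and the 9 siCtrl libraries between lines. In each line a probe was called within the study's limits, p below 0.05 and absolute Log2 FC over 1. In the other fits the Benjamini-Hochberg adjusted p over all probes had to be below 0.05, between lines with absolute Log2 FC over 1. An exact permutation test of 3 libraries against 3 cannot go below 0.1, so none was used. Bounds against empty groups set each library at a floor of 3 reads, and ratios on 1 or 2 reads carry exact 95% intervals. Both cover counting error only. Values by library are given for members called in a test or belonging to a known receptor or ligand pair, and for each pair of lines for up to 5 called members in each direction with the largest change. The values of 1 gene of the set are not reported here, although its probes are in the counts. The members and the partner lists were chosen with earlier results of these data known. Alternatives changed the filter, scaling, pseudocount, weights, libraries or covariates. The method was tested on simulated data. Promoter sequences are from RefSeq (GRCh38.p14), and figures used matplotlib 3.10.9 (Python 3.11.15).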

Additional observations from a re-analysis of the deposited data

How the results depend on the processing

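Signs were followed for the members called within lines and over the 18 libraries, and between lines for up to 5 called members in each direction. None of these reversed its sign under the alternatives run for it. In SUM149PT the members within the limits numbered 8, 6 to 11 when 1 library was left out, and 0 when an adjusted p below 0.05 was asked for in their place. In BT549 the 1 member, ITGA5, became 0 with a minimum of 50 normalized counts, with voom weights and with the adjusted p, 3 when all 18 libraries shared a fit, and 0 to 4 without 1 library. In Hs578T the count of 0 became 1 with the replicate axis as a covariate, an alternative chosen after seeing the data, and 0 to 2 without 1 library. Over the 18 libraries the 1 call, again ITGA5, became 0 with no filter, with a minimum of 50, with quantile normalization and with a pseudocount of 0.1, 3 with voom weights and 3 with the replicate axis, and 0 to 1 without 1 library. For the interaction the count became 1 with the replicate axis, which is taken from the residuals of the same libraries, so that its p-values are too small. Of the baseline calls, SUM149PT against BT549 gave 10, but 5 with a minimum of 50, 16 with the replicate axis, 18 over the siASAP1 libraries and 6 to 12 without 1 library, and SUM149PT against Hs578T gave 10, but 16 over the siASAP1 libraries. Apart from the construction of the stricter rule and filter, the cause was not tested. The labels give the groups the same replicate numbers. The correlation of the deviations of libraries with the same number was positive in every pair of Hs578T, at 0.099, 0.341 and 0.352. It was mixed in BT549, at -0.183, -0.35 and 0.109, and negative in every pair of SUM149PT, at -0.318, -0.647 and -0.336. The numbers were not taken as pairs in the main fits of any line, a choice that changes the counts in Hs578T. With a replicate block the counts were 1 in BT549, 1 in Hs578T (ITGA5, with 1246 rather than 502 of all probes at an unadjusted p below 0.05, and 11 higher and 26 lower rather than 0 past the adjusted threshold), 7 in SUM149PT (351 rather than 963 of all probes), 0 over the 18 libraries (ITGA5 at an adjusted p of 0.0675) and 0 for the interaction. Scaling by library totals moved the median of all probes by 0.213 on the log2 scale in SUM149PT, 0.114 in Hs578T and 0.122 over the 18 libraries. Depth limits the members under 10 normalized counts, and ITGA5, ITGA2 and ITGA6 rest on few reads in several libraries.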

Other observations

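The probes of a gene did not always carry the same signal. LAMA4 had 3 probes, of which LAMA4_15130 was read at 38.4 to 98.4 normalized counts in SUM149PT siCtrl libraries, LAMA4_27424 at 1.60 to 5.72 and LAMA4_27425 at 0 to 8.20. LAMB2_21018 was above 1000 in every library, at 1032 to 3564, while LAMB2_3721 lay between 3.78 and 54.7. Neither LAMB2 probe was called in any line, with a Log2 FC of 0.39 (SE 0.43) and 0.57 (SE 0.82) in SUM149PT. In BT549, ITGA1_27365 had no read in siASAP1 and 26 reads in siCtrl libraries, at least 2.16-fold lower with a floor of 3 reads per library, and its mean was under the minimum for the test. ITGAM in BT549 was at 29.3, 52.9 and 15.5 in siASAP1 and 0, 15.1 and 22.4 in siCtrl libraries, with overlap (Log2 FC 2.05, SE 1.21, adjusted p = 0.663, limma with Benjamini-Hochberg adjustment).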
